A study of Mus musculus with 15 samples.

Results

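The Schlafen genes measured here were Slfn1, Slfn2, Slfn3, Slfn4, Slfn5, Slfn8 and Slfn9 of the mouse. They were chosen by name from 24015 genes in each count table, and all 7 were present. The RNA came from C57BL/6 mouse embryonic fibroblasts, cultured cells grown from embryos, that were either wild type (WT, Nsd2(+/+)) or labelled NSD2 KO. NSD2, listed in the tables as Whsc1, is a histone methyltransferase of chromatin. Naive cells were sampled without interferon (0 h) or after 2 h with mouse recombinant IFNβ at 100 units per ml. Pretreated cells had IFNβ for 3 h, were washed and kept without it for 24 h, and were then sampled at 0 h or after a further 2 h with IFNβ. These 2 genotypes, 2 histories and 2 times gave 8 groups and 15 RNA-seq libraries, with 2 libraries in each group except KO naive 2 h, which had 1. Tests that use that group therefore assume that it varies like the other groups. The labels used here do not say how the KO cells were derived, how many embryos or lines stand behind either genotype, or whether replicates were separate cultures, so that p-values measure only the spread between these libraries. Fewer cells of a type and less RNA per cell cannot be told apart in such bulk RNA.

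Schlafen proteins share an N-terminal core and fall into short forms (Slfn1, Slfn2), intermediate forms (Slfn3, Slfn4) and long forms with a C-terminal helicase-like part (Slfn5, Slfn8, Slfn9). Several are induced by type I interferon, which acts through the IFNAR receptor, JAK1 and TYK2 to activate the transcription factor complex ISGF3. ISGF3 binds the interferon-stimulated response element (ISRE) of target promoters. Family members have been studied mostly in lymphocytes and macrophages, where Slfn2 maintains T-cell quiescence and protects transfer RNAs from cleavage, and where several relatives cleave or bind transfer RNA.

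The libraries held 17170845 to 44116418 counts in genes (median 28585502). A pair of abundant rows, Rn45s and Lars2, took 10.6% to 29.4% of counts. That share was under 20% in WT naive 0 h replicate 1, WT pretreated 2 h replicate 1 and KO pretreated 0 h replicate 2. It was lowest in WT naive 0 h replicate 1 (10.6%, beside 25.7% in replicate 2). The chi-square per degree of freedom between replicates was 76.5 to 178 in the 3 groups that hold these libraries. It was 3.74 to 6.24 in the other 4 groups with a pair. Rn45s and Lars2 were among the genes in that chi-square, so it partly restates their share. It was not computed without them. Comparisons with WT naive 0 h are given without replicate 1 as well, except where the value and its call stayed close. Whsc1 was at 105.5 to 150.7 counts per 1000000 gene counts (CPM) in WT and at 91.5 to 123.9 CPM in KO; the ranges overlapped, and KO was lower by 0.18 to 0.39 on the log2 scale in the 4 conditions. The tables hold 1 count for all of Whsc1 and cannot show a missing exon, so that its level is no check of the labels, and KO below means the libraries labelled so. Of 10 fibroblast markers, none was under 1 CPM throughout KO, while Thy1 and Lum were under 1 CPM in all WT libraries; summed levels were 12165 to 19732 CPM in WT and 10507 to 13298 CPM in KO.

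Markers of leukocytes, in which several Schlafen genes are best known, were low. Emr1, Aif1 and Tyrobp of macrophages and Cd3e and Ms4a1 of lymphocytes were at 0 in every library. Of 10 myeloid markers, 7 stayed under 1 CPM in all WT libraries and 8 in all KO libraries. The exceptions were Cd68 and Cd14 in both genotypes and Csf1r in WT. Of 4 tested myeloid markers, 3 were called lower in KO and none higher in each condition, beside 61.2% to 67.1% of all genes called. The summed level of 10 myeloid markers was 13.8 to 21.2 CPM in WT and 5.38 to 9.07 CPM in KO. That of 10 lymphocyte markers was 0.302 to 0.958 CPM in WT and 1.33 to 3.13 CPM in KO, where 9 of 10 stayed under 1 CPM and Lck, a kinase of T cells, was the exception. For 6 endothelial markers the sums were 1.06 to 1.78 CPM in WT and 0.525 to 1.34 CPM in KO, and for 6 epithelial markers they were 1.11 to 3.72 CPM and 2.22 to 5.03 CPM. The part of these differences in the Schlafen results was not tested.

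In the RefSeq annotation of GRCm38.p6 the genes lie side by side on chromosome 11, in the order Slfn5, Slfn9, Slfn8, the pseudogene Slfn10-ps, Slfn2, Slfn1, Slfn4 and Slfn3, followed by Slfn14. The promoter windows of all 7 genes, 250 bases before to 50 after an annotated start, were matched by symbol and searched on both strands for the ISRE core, spelled GAAANNGAAA, and for the gamma-activated site (GAS), spelled TTCNNNGAA. ISRE cores were present in the windows of Slfn5, Slfn8 and Slfn9, the long forms, and GAS matches in none of the 7. Among 32851 windows of 300 bases in the same table, 3.44% held an ISRE core and 8.30% a GAS match. Slfn8 and Slfn9 carried the same letters, at 48 to 39 bases before the start in Slfn8 and 45 to 36 before it in Slfn9; in the window of a further annotated Slfn8 start the same site lay 136 to 127 bases before it. In Slfn5 the core lay 155 to 146 bases before the start. The 250 bases upstream of Slfn8 and Slfn9 were identical at 84% of positions after global alignment, whereas no other pair of members exceeded 62.4%. The upstream stretches of these 3 genes are shown because they hold the cores, written 5′ to 3′ on the gene's own strand from RefSeq (GRCm38.p6), with the core in capitals. They are chr11:82951852-82952101 on the plus strand for Slfn5, chr11:82991831-82992080 on the minus strand for Slfn9 and chr11:83020811-83021060 on the minus strand for Slfn8.
Slfn5: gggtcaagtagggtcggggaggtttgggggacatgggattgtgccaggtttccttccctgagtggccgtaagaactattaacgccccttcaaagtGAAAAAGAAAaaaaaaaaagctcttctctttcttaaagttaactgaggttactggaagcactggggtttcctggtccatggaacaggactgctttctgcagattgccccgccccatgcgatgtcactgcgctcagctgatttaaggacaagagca
Slfn9: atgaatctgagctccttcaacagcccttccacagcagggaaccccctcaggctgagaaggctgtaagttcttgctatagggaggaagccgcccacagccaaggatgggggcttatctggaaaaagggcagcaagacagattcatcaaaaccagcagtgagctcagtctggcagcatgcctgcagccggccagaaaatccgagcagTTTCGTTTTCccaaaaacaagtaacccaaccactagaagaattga
Slfn8: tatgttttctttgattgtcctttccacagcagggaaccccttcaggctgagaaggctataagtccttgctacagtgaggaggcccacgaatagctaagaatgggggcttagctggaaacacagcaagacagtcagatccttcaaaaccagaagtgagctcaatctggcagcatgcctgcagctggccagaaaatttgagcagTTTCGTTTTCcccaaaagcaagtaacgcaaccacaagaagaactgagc

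A match to these letters is a description of the sequence and not a measured binding site. No ISRE core was found in the windows of Slfn1, Slfn2, Slfn3 and Slfn4, which says only that these letters are not there. Of the 3 genes with a core, Slfn8 and Slfn9 rose with interferon in naive WT cells and Slfn5 was not called. Of the 4 without, Slfn2 rose and the others were not called. In naive KO cells all 7 were called higher, with a core or without, beside 36.2% of all tested genes called.

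Near-identical copies limit how well some members can be counted apart. Of all 50-base words in GENCODE M21 transcripts, Slfn8 shared 14.6% and Slfn9 11.2% with another Schlafen gene, mostly with each other and with Slfn10-ps. The shares were 8.15% for Slfn4, 7.39% for Slfn3, 4.27% for Slfn2, 0.606% for Slfn1 and 0% for Slfn5. Reads in those stretches may have been placed in either gene or dropped. Slfn5 overlaps an antisense RNA, Slfn5os, which had 0 or 1 counts in every library; strand use in counting is not given in the sources used here, so reads of that pair cannot be told apart.

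Slfn9 was the member with the most reads. This long form rose after interferon in both genotypes, and the response was larger in KO. In WT its level was 22.7 and 19.2 CPM in naive 0 h cells and 26.2 and 27.4 CPM after 2 h; in pretreated WT cells it was 32.2 and 33.7 CPM at 0 h and 90.8 and 79.8 CPM after 2 h. In KO it was 22.8 and 23.7 CPM in naive cells, 178.8 CPM after 2 h, 32.6 and 40.9 CPM in pretreated cells and 193 and 219 CPM after their 2 h. No library with interferon overlapped the matching libraries without it, in either genotype. The naive response was 0.59 ± 0.07 (log2 change ± SE; edgeR quasi-likelihood test, adjusted p = 1.5e-07) in WT and 3.15 ± 0.07 (adjusted p = 7.7e-26) in KO. All log2 changes below are fitted with TMM scaling over the 15 libraries, and a change was called where the Benjamini-Hochberg adjusted p over 13802 tested genes was under 0.05.

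Slfn8, the long form next to Slfn9, started lower and had the largest called WT response of the 7 in this fit. WT naive libraries were at 0.409 and 0.524 CPM (17 and 9 counts), and those after 2 h were at 3.93 and 4.13 CPM. Pretreated WT libraries were at 1.14 and 1.08 CPM before and 17.5 and 19.0 CPM after interferon. KO libraries were at 1.46 and 1.05 CPM naive, 66.1 CPM after 2 h, 2.56 and 3.18 CPM pretreated, and 74.9 and 88.6 CPM after re-stimulation. Every KO library with interferon thus lay above every WT library. The naive response was 3.46 ± 0.27 in WT (edgeR, adjusted p = 1.7e-11) and 5.99 ± 0.14 in KO (adjusted p = 1.5e-24). Without WT naive 0 h replicate 1 the WT value was 3.02 (adjusted p = 2.5e-06).

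Slfn5, the remaining long form, is known as a nuclear protein that modulates interferon-driven transcription. Its WT libraries stayed between 0.990 and 2.16 CPM (median 1.52 CPM, 8 libraries) with or without interferon. In KO it was at 3.88 and 5.80 CPM in naive cells, 19.3 CPM after 2 h, 4.20 and 4.72 CPM in pretreated cells and 16.5 and 16.9 CPM after re-stimulation. All KO libraries exceeded all WT libraries, and those with interferon exceeded those without. The naive response was 2.16 ± 0.16 in KO (edgeR, adjusted p = 1.5e-12) and 0.09 ± 0.29 in WT (adjusted p = 0.84). Without WT naive 0 h replicate 1 the WT value was 0.49 (adjusted p = 0.50).

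Slfn2, the short form tied to T-cell quiescence, was called higher with interferon in naive and pretreated cells of both genotypes. Slfn8 and Slfn9 shared these calls, whereas Slfn5 was called only in KO. WT libraries gave 0.937 and 0.757 CPM naive, 3.20 and 2.32 CPM after 2 h, 0.774 and 0.900 CPM pretreated, and 4.93 and 5.24 CPM after re-stimulation. KO libraries gave 3.46 and 3.64 CPM, 43.1 CPM, 6.09 and 8.64 CPM, and 50.8 and 58.1 CPM in the same order. The lowest KO level, in naive cells, was above all WT levels except those of re-stimulated cells. Its naive response was 1.98 ± 0.24 in WT (edgeR, adjusted p = 1.5e-07) and 3.81 ± 0.12 in KO (adjusted p = 5.4e-21).

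Slfn1, the other short form and the founding member described in thymocytes, was detected almost only in KO cells with interferon. It had 14 counts in KO naive 2 h (0.479 CPM) and 14 in each KO pretreated 2 h library (0.317 and 0.482 CPM). All 4 KO libraries at 0 h had 0 counts, which allows up to 0.0747 to 0.125 CPM per library by a floor of 3 counts. Of 8 WT libraries, 7 had 0 counts (up to 0.0721 to 0.175 CPM) and WT pretreated 2 h replicate 1 had 1 count. Against the floor over the group, Slfn1 was at least 10.2-fold higher after 2 h in naive KO cells and at least 8.23-fold higher in pretreated KO cells. Slfn1 passed the filter on low counts only through these KO libraries, where it is high, so that its calls add nothing to a count of members. The smaller counts below leave it out. Counts out of 7 and medians keep it, also where both compared groups had 0 counts and it could not be called.

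Slfn3 and Slfn4, the intermediate forms, were far lower in KO cells than in WT without interferon. Slfn3, studied as a regulator of gut epithelial differentiation, was at 2.91 to 5.26 CPM (median 3.51 CPM) in the 8 WT libraries. KO libraries at 0 h held 1 to 4 counts (0.0249 to 0.111 CPM), and those with interferon held 18 to 27 counts (0.521 to 0.929 CPM). The KO range with interferon therefore lay above the KO range without it and below every WT library. In naive KO cells the ratio after against before interferon was 13.2, with an exact 95% counting interval of 3.84 to 69.8. The fitted change was 3.81 ± 0.76 (edgeR, adjusted p = 0.00018), against -0.005 ± 0.19 (adjusted p = 1) in WT; the KO value was 4.63 without KO naive 0 h replicate 1 and 3.02 without replicate 2.

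Slfn4, an interferon-induced gene of macrophages, was at 0.684 to 1.85 CPM (median 1.22 CPM) in WT, where libraries of naive cells with and without interferon overlapped. In KO it had 0 and 1 counts in naive cells and 2 and 0 counts in pretreated cells. After interferon, KO libraries held 69 counts (2.36 CPM) in naive cells and 60 and 54 counts (1.36 and 1.86 CPM) in pretreated cells. The KO level thus went from near 0 to the WT range or above it. The naive KO ratio was 151 (95% counting interval 26.3 to 6068) from 69 counts against 1, and the pretreated ratio was 50.3 (13.6 to 420). These intervals cover counting error only. In WT the naive change was 0.11 ± 0.30 (edgeR, adjusted p = 0.83), and without WT naive 0 h replicate 1 it was 0.79 (0.27).

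**Figure D1:**
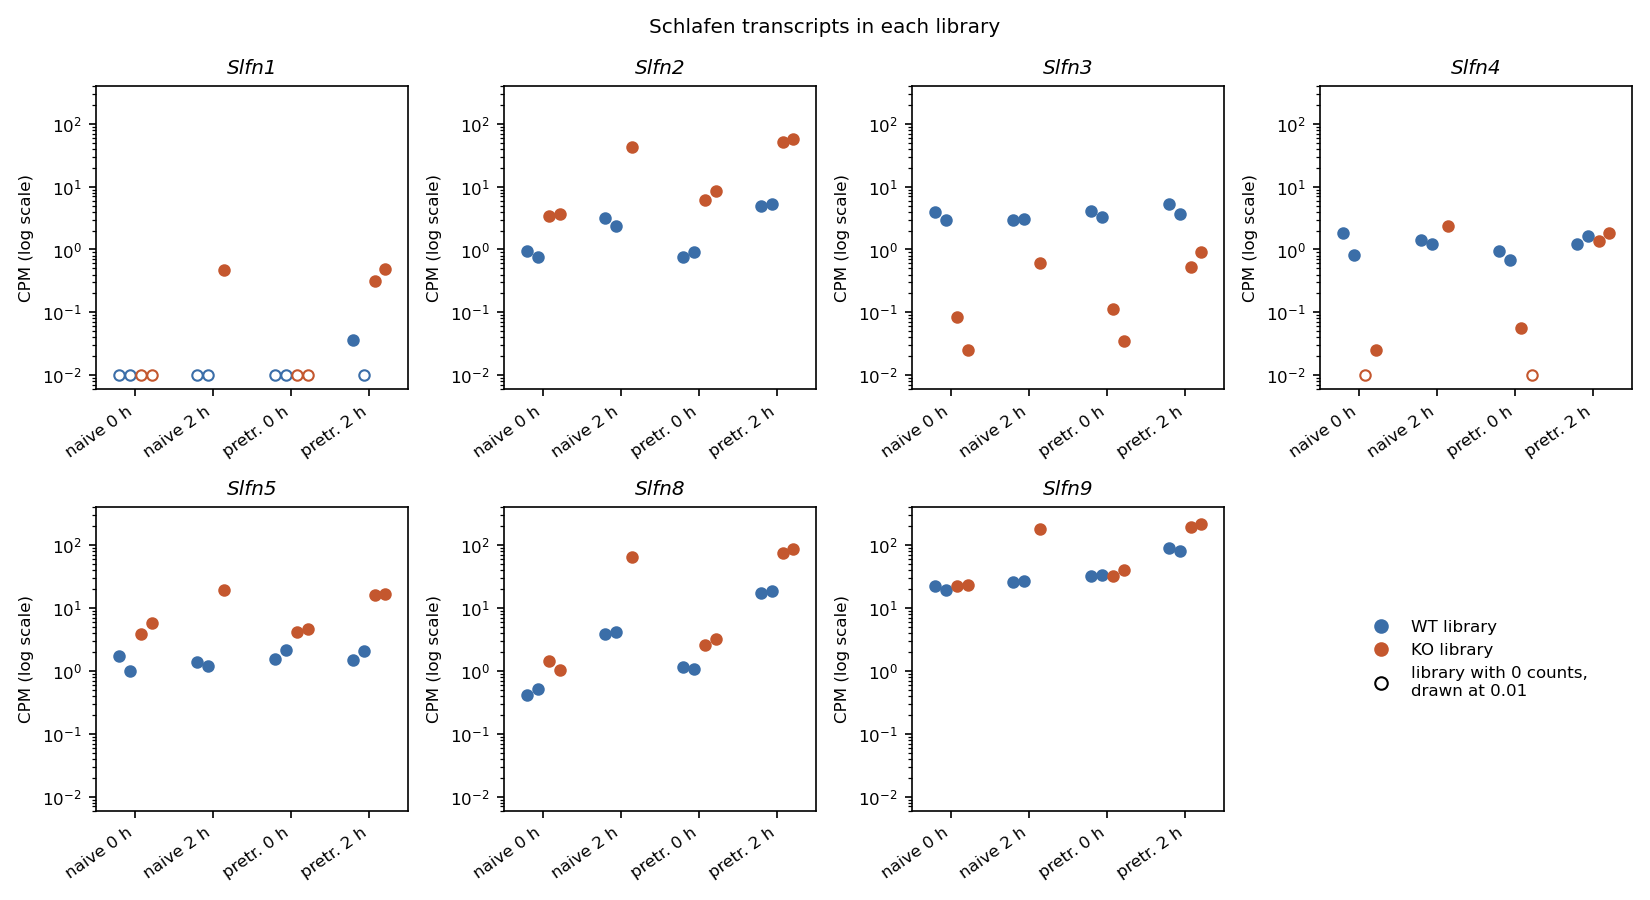
Level of each Schlafen gene in every library, as CPM on a log axis, for WT (blue) and KO (orange) in 4 conditions; each point is 1 library and open points at the bottom have 0 counts. Slfn5 is flat in WT between 0.990 and 2.16 CPM, and Slfn3 and Slfn4 in KO fall to 0.111 CPM or less without interferon.

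The family total was compared between groups per length, as mean CPM per kb of exon in the basic set of GENCODE M21. It was 6.66 CPM per kb in WT naive cells and 9.41 after 2 h, and 8.91 and 25.2 in pretreated WT cells. In KO the totals were 7.24 and 77.2 in naive cells and 12.2 and 91.9 in pretreated cells. The totals of naive cells at 0 h were thus close between genotypes, whereas pretreated KO cells at 0 h had the higher total. In makeup, Slfn9 held 53.5% of the WT naive total and 54.6% of the KO naive total. Slfn3 held 28.7% of it in WT and 0.412% in KO, and Slfn2 held 7.65% in WT and 29.5% in KO. The exon length of Slfn3 was 1816 bases in the basic set, whereas its full set of M21 transcripts held 3409 words of 50 bases. A longer length would lower the Slfn3 share and the WT totals, and other lengths were not tried. After interferon in naive KO cells Slfn9 made up 39.4%, Slfn2 33.5% and Slfn8 21.4% of the total.

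**Figure D2:**
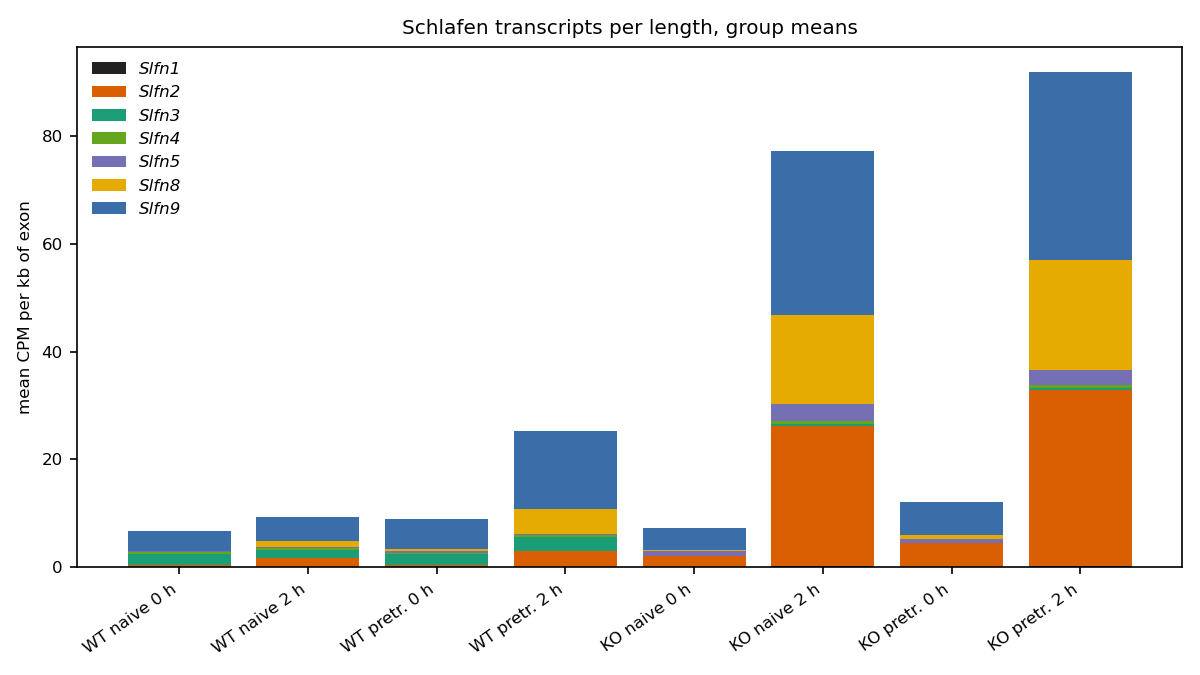
Stacked bars of the mean level of each Schlafen gene per exon length (CPM per kb, linear axis from 0) in the 8 groups; KO naive 2 h is 1 library. The bar of naive cells after 2 h reaches 9.41 in WT and 77.2 in KO, and the Slfn3 segment is visible only in WT.

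In naive WT cells 3 of 7 members rose after 2 h of interferon (Slfn2, Slfn8 and Slfn9) and none fell, where 30.6% of all tested genes were called in either direction. The median change of the 7, with Slfn1 fitted at 0 for want of counts, was 0.11 and that of all tested genes -0.02. In naive KO cells all 7 rose, or 6 of 6 without Slfn1, against a background of 36.2% called, and the median was 3.81 beside -0.01 for all genes. The response itself was larger in KO for 6 members (Slfn2, Slfn3, Slfn4, Slfn5, Slfn8 and Slfn9), with 15.3% of all genes called for such a difference between genotypes. That difference was 2.56 ± 0.10 for Slfn9 (edgeR interaction, adjusted p = 8.9e-18), 2.53 ± 0.46 for Slfn8 (0.00017), 2.07 ± 0.33 for Slfn5 (2.5e-05) and 1.83 ± 0.32 for Slfn2 (8.5e-05). For the intermediate forms it was 3.82 ± 0.78 (Slfn3, edgeR adjusted p = 0.00073) and 7.0 ± 0.82 (Slfn4, 1.4e-07), both set against naive 0 h KO libraries of 0 to 2 counts. Without KO naive 0 h replicate 1 the Slfn3 difference was 4.63, and without replicate 2 the differences were 3.03 for Slfn3 and 9.15 for Slfn4. Without WT naive 0 h replicate 1 all 6 calls held, with values of 1.81 for Slfn2 (edgeR, adjusted p = 0.032), 1.67 for Slfn5 (0.041) and 6.30 for Slfn4 (8.3e-05). For Slfn1 no usable estimate of this difference was obtained, since WT was at 0.

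At 24 h after washout, a few members were called between pretreated cells that had no new interferon and naive cells. In WT 2 of 7 were higher, with 24% of all genes called, so that this count by itself does not set the family apart. They were Slfn8 by 1.54 ± 0.37 (edgeR, adjusted p = 0.0025) and Slfn9 by 0.82 ± 0.07 (7.6e-10). The Slfn8 difference rests on WT naive 0 h replicate 1, since without it the value was 1.10 (adjusted p = 0.19). In KO 3 of 7 were higher, namely Slfn8 by 1.26 ± 0.22 (edgeR, adjusted p = 0.0001), Slfn2 by 1.04 ± 0.14 (2.1e-06) and Slfn9 by 0.66 ± 0.07 (1.1e-08), with 21.7% of genes called. The washout effect differed between genotypes for 0 of 7 members by edgeR, where 3.22% of all genes were called; 2 members, Slfn2 and Slfn5, had an unadjusted p under 0.05, and DESeq2 also called 0.

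Re-stimulation of pretreated WT cells raised 3 of 7 members, the same as in naive cells (Slfn2 by 2.64 ± 0.22, Slfn8 by 4.08 ± 0.17 and Slfn9 by 1.41 ± 0.06), with 22.7% of genes called. Slfn4 changed by 0.82 ± 0.34 in these cells (edgeR, adjusted p = 0.081), and its 2 re-stimulated libraries lay above the unstimulated ones; without WT pretreated 2 h replicate 1 it was called (1.13, adjusted p = 0.046). In pretreated KO cells all 7 rose, or 6 of 6 without Slfn1, with 31.5% of genes called. Those changes were 4.99 ± 0.11 for Slfn8, 3.06 ± 0.10 for Slfn2, 2.65 ± 0.06 for Slfn9, 2.06 ± 0.14 for Slfn5, 3.23 ± 0.55 for Slfn3 and 5.63 ± 0.59 for Slfn4. The last 2 are set against 0 to 4 counts per library. Without KO pretreated 0 h replicate 1 they were 4.38 for Slfn3 and 8.66 for Slfn4, and without replicate 2 they were 2.65 and 4.79.

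The response to re-stimulation was larger in KO for 5 members, beside 9.03% of all genes called for that difference. It was 1.24 ± 0.08 for Slfn9 (edgeR interaction, adjusted p = 4.4e-12), 2.08 ± 0.30 for Slfn5 (6.4e-06), 2.90 ± 0.60 for Slfn3 (0.0011), 4.81 ± 0.80 for Slfn4 (7.4e-05) and 0.92 ± 0.28 for Slfn8 (0.032). Without KO pretreated 0 h replicate 1 the differences of Slfn3 and Slfn4 were 4.05 and 7.83, and without replicate 2 they were 2.31 and 3.96. The Slfn8 call did not hold when any of WT pretreated 0 h replicate 1 (edgeR, adjusted p = 0.20) or replicate 2 (0.13), KO pretreated 0 h replicate 1 (0.097) or replicate 2 (0.054), WT pretreated 2 h replicate 1 (0.086) or KO pretreated 2 h replicate 2 (0.058) was left out. Slfn2, whose re-stimulation response differed by 0.42 ± 0.29 (edgeR, adjusted p = 0.48), was not called.

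Re-stimulated cells were also compared with cells that met interferon for the first time, both at 2 h. In WT 4 of 7 members were higher after pretreatment, where 25% of all genes were called. Slfn8 was higher by 2.16 ± 0.13 (edgeR, adjusted p = 8.1e-14), Slfn9 by 1.64 ± 0.06 (3.2e-18) and Slfn2 by 0.80 ± 0.17 (0.00056). Slfn3 was higher by 0.56 ± 0.19 (edgeR, adjusted p = 0.028), a call lost without either WT naive 2 h replicate (0.16 and 0.092 for replicates 1 and 2) or WT pretreated 2 h replicate 1 (0.28), and by DESeq2 (0.17). In KO 2 of 7 were higher, with 18.8% of genes called, by smaller amounts: Slfn2 by 0.29 ± 0.10 (edgeR, adjusted p = 0.032) and Slfn8 by 0.26 ± 0.09 (0.044). Both KO calls rest on comparison with 1 naive 2 h library and were lost without KO pretreated 2 h replicate 2 (0.21 and 0.15 on the log2 scale, adjusted p = 0.22 and 0.36) and by DESeq2. The difference between genotypes in this step was not tested.

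**Figure D3:**
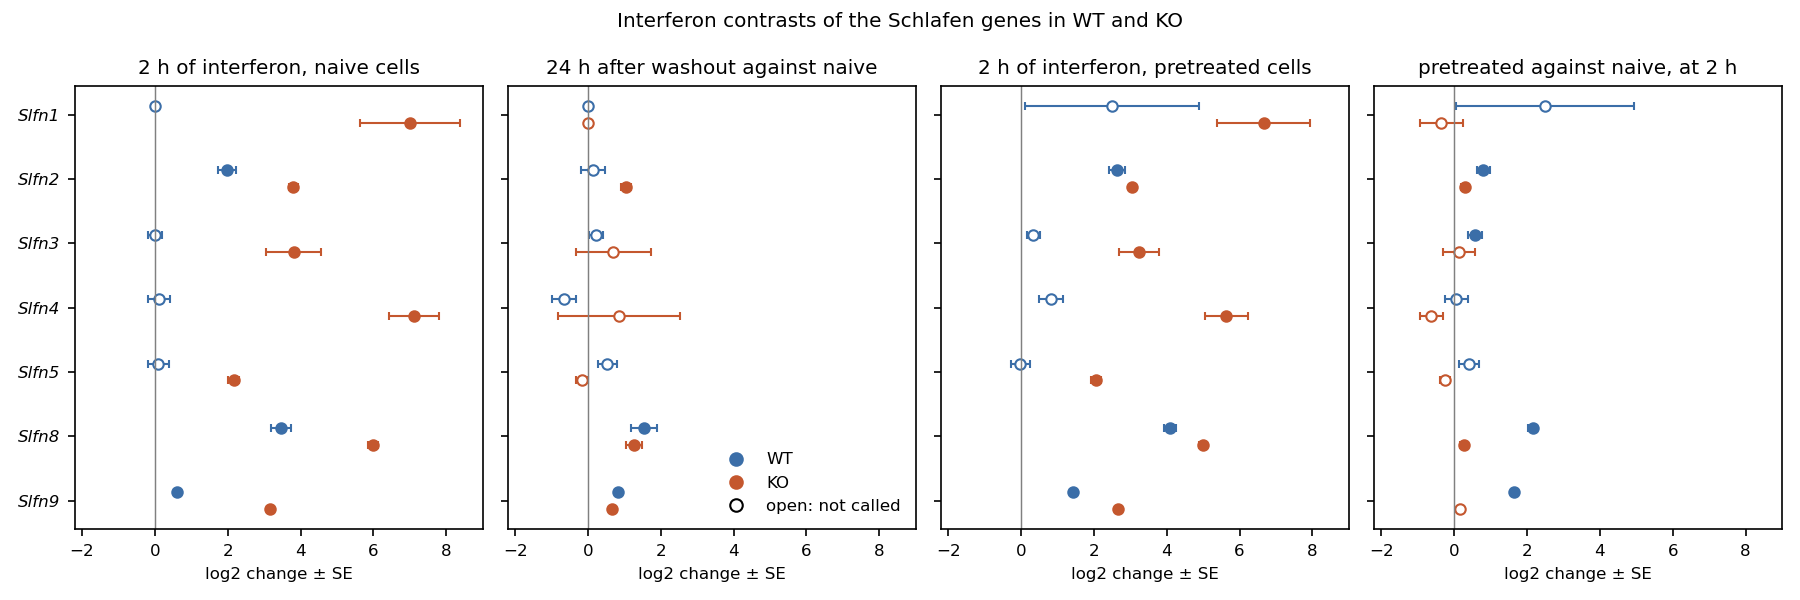
Log2 change ± SE of each Schlafen gene for the naive response, the washout effect, the response of pretreated cells and the re-stimulated against first-time 2 h level, in WT (blue) and KO (orange); filled points were called and open points were not. Naive KO points run from 2.16 (Slfn5) to 7.11 (Slfn4). In the same panel the WT points of Slfn3, Slfn4 and Slfn5 lie at -0.005, 0.11 and 0.09. Fitted values of Slfn1 and of Slfn4 in KO depend on groups at or near 0 counts. Points of Slfn1 have no error bar where both compared groups had 0 counts.

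KO was also set against WT within each condition. In naive cells without interferon 6 of 7 members differed, 4 higher and 2 lower, beside 67.1% of all tested genes called, so that a call by itself sets no member apart. Slfn2 was higher in KO by 2.13 ± 0.22 (edgeR, adjusted p = 1.5e-09), Slfn5 by 1.86 ± 0.21 (5.0e-09) and Slfn8 by 1.56 ± 0.35 (0.00029). Slfn9 was higher by 0.23 ± 0.07 (edgeR, adjusted p = 0.0066), with its libraries separated only narrowly. Without WT naive 0 h replicate 1 the Slfn8 difference was 1.12 (adjusted p = 0.073) and the Slfn9 difference 0.20 (0.095), and without KO naive 0 h replicate 2 the latter was 0.21 (0.062). Slfn3 was 78.9-fold lower in KO by counts (95% counting interval 26.6 to 386) from 3 counts against 217, and Slfn4 was 99.3-fold lower (17.4 to 3963) from 1 count against 91. Without WT naive 0 h replicate 1 their fitted differences were -5.90 and -5.42, beside -6.04 ± 0.43 and -6.12 ± 0.71 with it. Without KO naive 0 h replicate 1 the Slfn3 difference was -6.85, and without replicate 2 the differences were -5.25 for Slfn3 and -8.27 for Slfn4.

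After 2 h of interferon in naive cells, 6 of 7 members (5 of 6 without Slfn1) were higher in KO and 1 lower, with 61.2% of genes called. Slfn8 was higher by 4.09 ± 0.12, Slfn2 by 3.96 ± 0.13, Slfn5 by 3.93 ± 0.20 and Slfn9 by 2.79 ± 0.07. Slfn1 was at least 8.65-fold higher, counted against the floor in WT. Slfn4 was higher by 0.88 ± 0.33 (edgeR, adjusted p = 0.023), a call lost without WT naive 2 h replicate 1 (0.051) or replicate 2 (0.077) and by DESeq2 (0.13). Slfn3 stayed lower, by a log2 difference of -2.22 ± 0.35 (edgeR, adjusted p = 2.6e-06).

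In pretreated cells without new interferon 3 of 7 were higher and 2 lower in KO, with 64.7% of genes called. Slfn2 was higher by 3.03 ± 0.20, Slfn8 by 1.28 ± 0.24 and Slfn5 by 1.18 ± 0.21. Slfn3 differed by -5.56 ± 0.39 (edgeR, adjusted p = 2.0e-13) and Slfn4 was 26.5-fold lower by counts (6.91 to 225) from 2 counts against 45. Without KO pretreated 0 h replicate 1 the fitted differences were -6.71 for Slfn3 and -7.64 for Slfn4, and without replicate 2 they were -4.97 and -3.77. Slfn9 differed by 0.07 ± 0.06 (adjusted p = 0.35). After re-stimulation 5 of 7 (4 of 6 without Slfn1) were higher and 1 lower, with 66.3% of genes called. These were Slfn2 by 3.45 ± 0.11, Slfn5 by 3.26 ± 0.17, Slfn8 by 2.19 ± 0.08, Slfn9 by 1.31 ± 0.05 and Slfn1, whose ratio of 20.6 (3.41 to 843) set 28 counts against 1. Slfn3 was the lower member, at -2.66 ± 0.23 (edgeR, adjusted p = 3.5e-11), and Slfn4 differed by 0.19 ± 0.28 (adjusted p = 0.56).

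**Figure D4:**
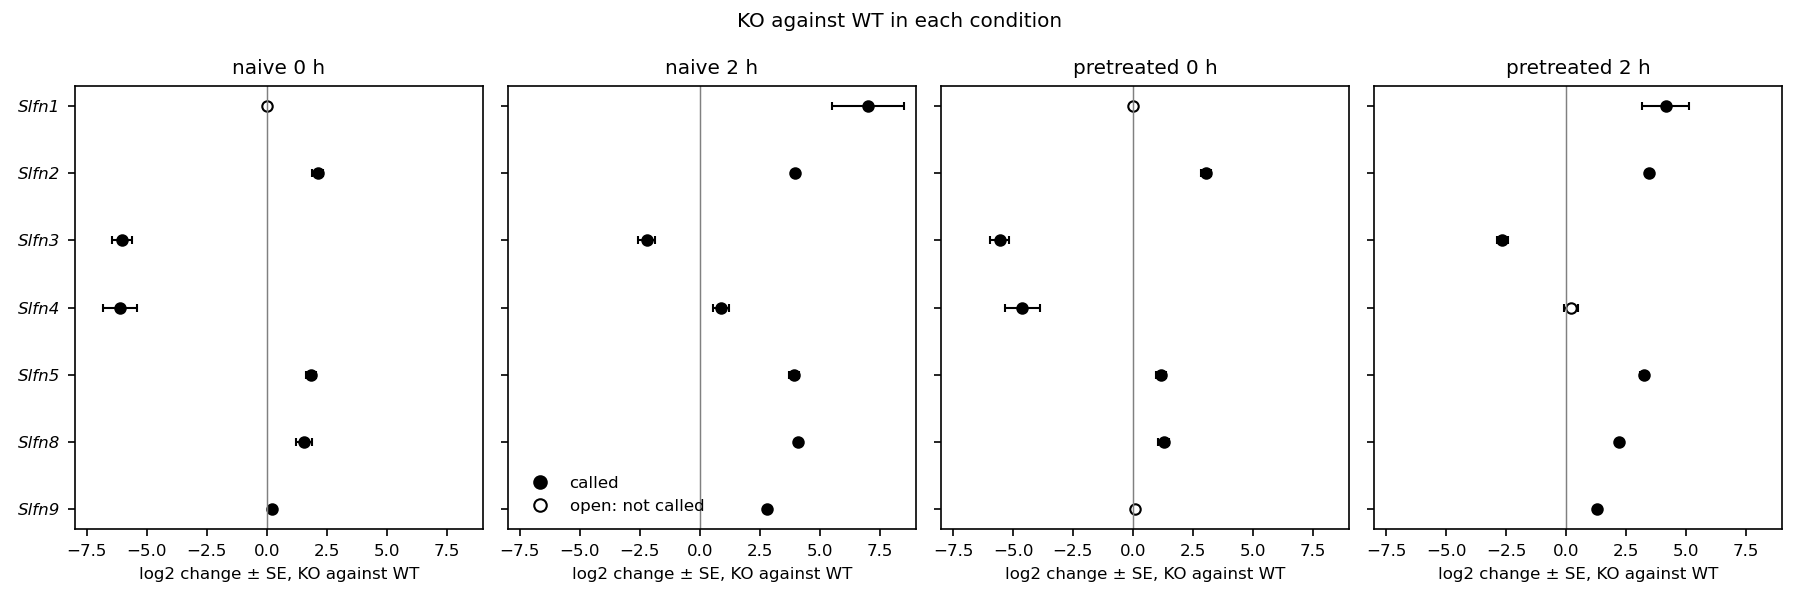
Log2 difference ± SE of KO against WT for each Schlafen gene in the 4 conditions; filled points were called and open points were not. Slfn3 lies left of 0 in every panel, from -6.04 to -2.22, and Slfn4 moves from -6.12 in naive 0 h cells to 0.88 at naive 2 h, while Slfn2, Slfn5 and Slfn8 lie right of 0 throughout; fitted values of Slfn1 and of Slfn4 at 0 h rest on groups at or near 0 counts.

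The levels of each gene ranked differently over the 8 groups. For Slfn2, Slfn8 and Slfn9 the top 2 groups by mean were KO pretreated 2 h and KO naive 2 h, in that order. KO naive 2 h is 1 library, so the order of these 2 groups is weakly held. Between them Slfn9 was not called, and the calls of Slfn2 and Slfn8 were lost by DESeq2. The next group was WT pretreated 2 h for Slfn8 and Slfn9 and KO pretreated 0 h for Slfn2. Slfn5 also had the KO 2 h groups at the top, but with naive (19.3 CPM, 1 library) above pretreated (16.7 ± 0.310 CPM, SD, n = 2). That difference was not called. The 4 WT groups of Slfn5 overlapped with their neighbours in rank. For Slfn3 the 4 WT groups, at 2.98 ± 0.0720 to 4.5 ± 1.08 CPM (SD, n = 2), overlapped with their neighbours and stood above the 4 KO groups. Slfn4 was lowest in both KO groups at 0 h and highest in KO naive 2 h, and from WT naive 2 h to KO pretreated 2 h neighbouring groups overlapped.

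Across the 15 libraries the log2 levels of the members were correlated to different degrees; these values describe libraries that share groups and depth. Slfn8 and Slfn9 were the closest pair (r = 0.95) and Slfn2 and Slfn8 the next (r = 0.90). The intermediate forms Slfn3 and Slfn4 had r = 0.82, whereas Slfn3 and Slfn5 had r = -0.58. Slfn3 was lower and Slfn5 higher in KO than in WT, but both rose with interferon in KO. Among the tested genes outside the family, the pattern of Slfn8 was most like that of Mx2, an antiviral GTPase (r = 0.996), and Igtp. That of Slfn9 was most like Parp9 (r = 0.98), Zc3hav1 and Endod1, and that of Slfn1 was most like Gbp5 (r = 0.99), Sectm1a and Gbp11. Slfn1 had 0 or 1 counts outside the 3 KO libraries with interferon, so its r rests on those libraries. Slfn2 was nearest to 9930111J21Rik1, Itpripl2 and Fhl2 (r = 0.98 each), and Slfn5 to Olr1 (r = 0.98), H2-Q4 and Gypc. The intermediate forms had other companions, Slfn3 with Fam84b (r = 0.99), Greb1l and Gm2373, and Slfn4 with Vma21 (r = 0.97), Thbs1 and Xdh.

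The pseudogene Slfn10-ps, which lies between Slfn8 and Slfn2 and shares sequence with Slfn8 and Slfn9, had 3 to 8 counts in each WT library, 8 to 19 in KO libraries at 0 h and 127 to 159 in KO libraries with interferon. Slfn14 had 0 to 10 counts and Slfnl1 0 to 12 counts per library. On either side of the cluster, 6 neighbours were taken from RefSeq, and 11 of these 12 passed the filter. In naive KO cells 3 of 11 rose (Rffl, Unc45b and Ap2b1) and 1 fell, beside 36.2% of all genes called, with a median of -0.04 beside -0.01 for all genes. The rise of Ap2b1 is by the fit with TMM scaling. Its CPM did not rise, at 199.2 in KO naive 0 h and 197.0 in the 1 KO naive 2 h library. Unc45b, a myosin chaperone gene next to the Slfn5 end of the cluster, had 2 to 22 counts in all libraries without interferon and in WT with it, but 64 to 72 in the 3 KO libraries with it; its naive response was 3.24 ± 0.42 in KO (edgeR, adjusted p = 4.0e-07) and 0.36 ± 0.49 in WT (0.63). In naive WT cells 2 of 11 neighbours rose and 3 fell, beside 30.6% of all genes called.

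For scale, 15 antiviral interferon-stimulated genes were read in the same fit, with median naive responses of 3.06 in WT and 5.69 in KO; all 15 rose in each, beside 30.6% and 36.2% of all genes called. Ifit1, which binds viral RNA, rose by 4.93 ± 0.17 in WT and 8.58 ± 0.13 in KO, and Isg15, a ubiquitin-like modifier, by 4.62 ± 0.22 and 5.44 ± 0.12. Of this list 13 of 15 responded more in KO in naive cells (15.3% of all genes called) and 6 in pretreated cells (1 less, 9.03% called). Among Schlafen genes only Slfn8 exceeded either median in its genotype by a fit not resting on near-zero counts. In WT the margin was within the error of the fit (3.46 ± 0.27 beside 3.06). Without WT naive 0 h replicate 1 the Slfn8 value was 3.02, and the median of the list is not given without that library.

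Of 15 genes of the type I interferon receptor, its kinases, its transcription factors and its brakes, 12 were higher in KO naive cells at 0 h and none lower, where 67.1% of all tested genes were called, with a median difference of 0.48 beside 0.01 for all genes. They included Ifnar1, a receptor chain, by 0.66 ± 0.05, and Tyk2, a receptor kinase, by 1.13 ± 0.07. Irf9, the DNA-binding part of ISGF3, was higher by 1.98 ± 0.10 and Stat2 by 1.04 ± 0.08. Usp18, a brake on the receptor, was higher by 2.40 ± 0.32 in KO naive cells, and Socs1, another brake, differed by -0.29 ± 0.16 without a call. In naive cells with interferon 9 of the 15 rose and 1 fell in WT (30.6% of all genes called), and 10 rose and none fell in KO (36.2%). Stat2 rose by 2.29 ± 0.08 in WT and by 3.26 ± 0.07 in KO.

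Genes that cleave or protect transfer RNA, with related RNA-decay genes, formed a list of 12, of which 11 were tested. In KO naive cells at 0 h 4 were higher and 2 lower, where 67.1% of all tested genes were called, with a median of 0.18. Ang, the angiogenin that cuts transfer RNA in stress, was higher by 1.0 ± 0.18. Nsun2, a transfer RNA methyltransferase, was lower by a log2 difference of -0.59 ± 0.05, and Elac2, which trims transfer RNA ends, by -0.67 ± 0.07. With interferon in naive cells 4 rose and none fell in WT (30.6% of all genes called), and 6 rose and none fell in KO (36.2%). Eif2ak2, which encodes the kinase PKR, rose by 1.04 ± 0.05 in WT and 2.80 ± 0.06 in KO.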

How the data were processed

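RNA-seq of 15 libraries was analysed from tables of raw counts per gene deposited by the authors, 1 table for each sample. Per the labels' protocols, total RNA was made into Ovation SP Ultralow libraries, size-selected and sequenced in pairs on a HiSeq2000. Per the submitters' processing notes, STAR 2.5.2b and HTSeq were used with bcl2fastq 2.15, on the mouse build mm9; counting options were not stated in the labels. The 5 summary lines of each table were left out (reads in no feature were 35.1% to 41.3% of those in genes, in no feature or ambiguous). Groups came from the sample titles. CPM were computed per 1000000 gene counts. Genes passing filterByExpr (minimum count 10) were tested with edgeR 4.0.16 (TMM, quasi-likelihood, 8-group model, 7 residual degrees of freedom, Benjamini-Hochberg) in R 4.3.3, and the SE was taken from the F statistic. Exact intervals at 95% and a floor of 3 counts were used where a group had at most 3 counts.

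The test was first tested on simulated data. DESeq2 1.42.0, other scalings, no filter, the compared groups alone, left-out libraries and a replicate block were alternatives. Deviations of same-numbered libraries were close to uncorrelated across genes, which does not show that they were unpaired. Motifs were searched in RefSeq promoters of GRCm38.p6, while counting used mm9; no coordinates were converted. Sequence overlap came from all GENCODE M21 transcripts, and exon length from its basic set. The genes and lists were chosen with earlier results of these data known. All 7 members, up to 4 called genes of a list in its order and, for each member, the 3 tested genes most correlated with it (log2 CPM, prior count 2) were to be named, except a few that are not reported here; Slfn10-ps, Unc45b and the genes of a list outside that order were chosen after their values were seen.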

Additional observations from a re-analysis of the deposited data

Results flagged for a closer look

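The naive response to interferon differed between WT and KO by the test of the difference itself (edgeR interaction) for 6 members: by 1.83 for Slfn2, 3.82 for Slfn3, 7.0 for Slfn4, 2.07 for Slfn5, 2.53 for Slfn8 and 2.56 for Slfn9 on the log2 scale, each larger in KO. For the response of pretreated cells the same test separated the genotypes for 5 members, by 2.90 for Slfn3, 4.81 for Slfn4, 2.08 for Slfn5, 0.92 for Slfn8 and 1.24 for Slfn9. The Slfn8 difference in pretreated cells is weakly held. Its call was lost in several fits that left out a single library, as listed above. With library totals alone it was 0.81 and not called (edgeR, adjusted p = 0.17). It was 0.80, again with no call, once the 3 libraries with under 20% of counts in Rn45s and Lars2 were dropped. The naive values rest on 1 KO naive 2 h library, whose spread is assumed to be that of the other groups. The values of Slfn3 and Slfn4 are set against KO libraries of 0 to 4 counts at 0 h.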

How the results depend on the processing

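No called change of a member reversed under any alternative. The count of members called, in either direction, between re-stimulated and first-time 2 h cells in KO, 2 with the settings reported, was 0 with library totals alone, 0 with the replicate block, 0 with DESeq2, 1 with Rn45s and Lars2 left out and 4 in a fit of the compared groups alone (3 higher, and Slfn5 lower); leaving out a library gave 0 to 3. The count called after washout in WT, 2 as reported, was 1 without the 3 libraries low in Rn45s and Lars2 and 1 to 2 with a library left out. The cause was not tested. Where a left-out library leaves a group with 1, that library is assumed to vary like the other groups. The other 13 counts of members called in either direction stayed within 1.5 times of the reported value under every alternative run, down to 4 of 6 for KO against WT naive 0 h without WT naive 0 h replicate 1, where those higher went from 4 to 2. Replicate numbers were shared between groups. Across tested genes, the deviations of same-numbered libraries correlated at -0.02 to 0.07 over 21 pairs of groups. That cannot show whether same-numbered libraries shared a culture or a run. The replicate block gave 1.01 to 1.46 times as many called genes as reported, over the 15 comparisons. It changed 2 calls of members, both in KO between re-stimulated and first-time 2 h cells. Slfn2 (0.21 on the log2 scale) and Slfn8 (0.15) were then not called.

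Library totals alone shifted the median of all genes by -0.25 to 0.16 against TMM, by over 0.1 in 6 of 15 comparisons. There 10.5% of all calls of the naive response in WT were higher, beside 48.9% with TMM and 59.6% with DESeq2, and Slfn9 rose by 0.34 (edgeR, adjusted p = 0.044); the uncalled WT values of Slfn4 and Slfn5 were then -0.17 and -0.18. Slfn9 in KO against WT naive 0 h was 0.14 (adjusted p = 0.41). Slfn4 in re-stimulated WT cells was called without the filter on low counts (adjusted p = 0.039). Depth limits Slfn1 and, in KO at 0 h, Slfn3 and Slfn4, which had 0 to 4 counts per library.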
